A study of Mus musculus with 2 samples.

Results

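Heat shock proteins and J-domain co-chaperones were the genes examined here, in total RNA sequenced from left cerebral cortex. Members were taken by symbol alone: protein-coding genes named Hspa, Hspb, Hspd, Hspe, Hsph or Hsp90, and those named Dnaja, Dnajb or Dnajc with a number. The rule found 72 members among 55450 annotated genes, of which 21901 have a transcript of the protein_coding biotype (coding genes below). Both libraries came from female B6CASTF1/J mice, F1 hybrids with C57BL/6J and CAST/EiJ parents, at 4 days of age; 300 ng of RNA entered each. They form 1 group, replicate 1 and replicate 2, with no treatment, mutation or control. The labels give each library its own tissue sample and replicate number but the same donor identifier, so the spread between the libraries holds animal, sample and preparation together and these cannot be told apart.

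Chaperones bind unfolded or partly folded proteins. Hsp70 proteins hold and release short hydrophobic stretches in a cycle of ATP hydrolysis, J-domain proteins stimulate that hydrolysis and bring clients, and nucleotide exchange factors, among them the Hsp110 proteins, reset the cycle. Hsp90 acts later on kinases, receptors and other clients, Hspd1 and Hspe1 form the folding chamber of mitochondria, and small heat shock proteins hold unfolded clients without using ATP. In neurons, Hspa8 with the J-domain proteins Dnajc5 and Dnajc6 serves the synaptic vesicle cycle.

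Expected counts over annotated genes summed to 29280730 in replicate 1 and 28809312 in replicate 2. Levels are in TPM, a length-corrected abundance that sums to the same total in every library, and detection required 1 TPM or more in each library. A pair of values for a gene is that of replicate 1 and then of replicate 2, from the first table of the authors unless another is named. Over 13106 detected coding genes, log2(TPM + 1) of the libraries had a Pearson r of 0.993, a correlation across genes, which are not independent replicates. All 7 excitatory and all 4 inhibitory neuron markers were detected, as were all 4 markers of astrocytes and radial glia, and the 4 testis markers were at 0 in both libraries. Choroid plexus markers summed to 215 TPM in replicate 1 and 4.53 TPM in replicate 2, and blood markers to 347 and 46.1 TPM. In bulk tissue, fewer cells of a type and less RNA per cell cannot be told apart.

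Promoters are shown for the members that carry the binding letters of the heat shock factors or of the unfolded protein response, the 2 stress programs known to act on chaperone genes. Sequences are from RefSeq on GRCm38.p6, 250 bases before to 50 bases after the annotated start, 5′ to 3′, and 59 members had one. The heat shock element was searched on both strands as 3 alternating units, GAA, TTC and GAA with 2 free bases between neighbours, and the endoplasmic reticulum (ER) stress element as CCAAT and CCACG with 9 free bases between them. Capitals mark the match, which in Hsph1 lies after the start of the gene.
Hsph1, chr5:149636287-149636586, minus strand: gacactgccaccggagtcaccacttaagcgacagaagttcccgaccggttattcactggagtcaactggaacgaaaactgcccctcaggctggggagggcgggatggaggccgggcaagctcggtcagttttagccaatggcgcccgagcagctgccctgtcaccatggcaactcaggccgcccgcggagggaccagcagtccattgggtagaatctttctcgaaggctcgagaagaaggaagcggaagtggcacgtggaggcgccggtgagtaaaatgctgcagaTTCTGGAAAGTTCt
Hspe1, chr1:55087898-55088197, plus strand: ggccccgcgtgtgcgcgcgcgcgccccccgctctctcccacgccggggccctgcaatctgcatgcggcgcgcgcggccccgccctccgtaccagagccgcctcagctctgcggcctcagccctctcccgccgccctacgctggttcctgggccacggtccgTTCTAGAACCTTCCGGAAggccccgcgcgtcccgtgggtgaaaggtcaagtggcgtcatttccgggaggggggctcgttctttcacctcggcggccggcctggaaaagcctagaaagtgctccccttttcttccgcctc
Dnajb6, chr5:29735648-29735947, plus strand: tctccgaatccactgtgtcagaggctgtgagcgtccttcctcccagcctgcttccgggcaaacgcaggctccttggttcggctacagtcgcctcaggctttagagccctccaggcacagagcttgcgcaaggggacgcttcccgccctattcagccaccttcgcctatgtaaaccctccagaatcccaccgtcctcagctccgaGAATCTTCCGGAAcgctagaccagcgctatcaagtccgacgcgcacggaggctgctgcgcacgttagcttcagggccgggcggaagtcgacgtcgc
Hspa5, chr2:34771840-34772139, plus strand: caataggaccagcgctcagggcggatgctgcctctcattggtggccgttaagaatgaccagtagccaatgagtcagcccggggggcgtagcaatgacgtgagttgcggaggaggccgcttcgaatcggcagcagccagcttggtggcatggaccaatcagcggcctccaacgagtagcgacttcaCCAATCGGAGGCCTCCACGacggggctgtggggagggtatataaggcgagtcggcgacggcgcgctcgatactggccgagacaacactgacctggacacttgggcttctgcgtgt
Hsp90b1, chr10:86705395-86705694, minus strand: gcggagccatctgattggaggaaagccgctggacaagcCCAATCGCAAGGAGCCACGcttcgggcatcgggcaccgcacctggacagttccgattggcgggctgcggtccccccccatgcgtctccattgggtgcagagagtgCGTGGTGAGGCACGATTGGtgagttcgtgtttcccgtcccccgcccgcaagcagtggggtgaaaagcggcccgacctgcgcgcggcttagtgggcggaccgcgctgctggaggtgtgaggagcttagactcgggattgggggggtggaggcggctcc
Dnajc3, chr14:118937682-118937981, plus strand: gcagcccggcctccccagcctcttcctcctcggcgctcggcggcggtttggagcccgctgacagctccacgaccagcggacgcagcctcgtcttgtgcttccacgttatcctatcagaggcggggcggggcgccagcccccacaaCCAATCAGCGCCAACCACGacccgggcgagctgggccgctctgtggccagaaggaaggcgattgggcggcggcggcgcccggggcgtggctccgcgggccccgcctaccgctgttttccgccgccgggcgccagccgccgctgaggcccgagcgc

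The 3-unit heat shock letters stood in promoters of 4 members, Hsph1, Hspe1, Hspd1 and Dnajb6 (6.78% of 59), beside 0.662% of 27025 genes with a promoter. Hspd1 and Hspe1 are transcribed away from each other and overlap by 112 bases on chromosome 1, so the run of capitals in the Hspe1 promoter is also in the Hspd1 promoter, on its other strand. The ER stress letters stood in 3 members, Hspa5, Hsp90b1 and Dnajc3 (5.08%), beside 0.137% of genes, and Hsp90b1 held them at 2 places, once on each strand. All 3 encode proteins of the ER. A match describes these letters only and is no binding site by itself. The shorter 2-unit letters, GAA and TTC with 2 free bases between, were in 13 members (22.0%) and in 9.04% of genes; they are contained in the 3-unit letters or their reverse. Both stress-inducible Hsp70 genes carried them at the same distance from their start, in windows that were 98.7% identical.
Hspa1a, chr17:34972107-34972406, minus strand: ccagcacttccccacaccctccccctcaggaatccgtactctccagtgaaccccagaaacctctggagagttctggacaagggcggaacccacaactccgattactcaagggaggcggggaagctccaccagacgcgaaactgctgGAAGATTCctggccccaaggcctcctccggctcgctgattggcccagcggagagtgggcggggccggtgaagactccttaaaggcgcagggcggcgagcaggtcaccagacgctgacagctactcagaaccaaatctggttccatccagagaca
Hspa1b, chr17:34959189-34959488, minus strand: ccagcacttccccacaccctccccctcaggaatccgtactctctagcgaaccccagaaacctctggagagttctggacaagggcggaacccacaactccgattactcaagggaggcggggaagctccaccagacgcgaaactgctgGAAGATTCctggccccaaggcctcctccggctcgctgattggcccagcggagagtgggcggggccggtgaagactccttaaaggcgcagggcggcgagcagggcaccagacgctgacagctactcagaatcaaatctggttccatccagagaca

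Of the 72 members, 63 were detected (87.5%), beside 59.8% of all coding genes. The detected members had a median level of 20.4 TPM, against 17.2 TPM for all detected coding genes. Members at 100 TPM or more numbered 8, a further 24 lay between 20 and 100 TPM, 31 between 1 and 20 TPM, and 9 were below 1 TPM by their mean. The members summed to 4590 TPM in replicate 1 and 4581 TPM in replicate 2. That was 0.878% and 0.863% of the TPM of coding genes, from 0.329% of those genes. Hspa8, Hsp90ab1 and Hsp90aa1 held 50.01% of the members' sum in replicate 1 and 49.67% in replicate 2.

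**Figure D1:**
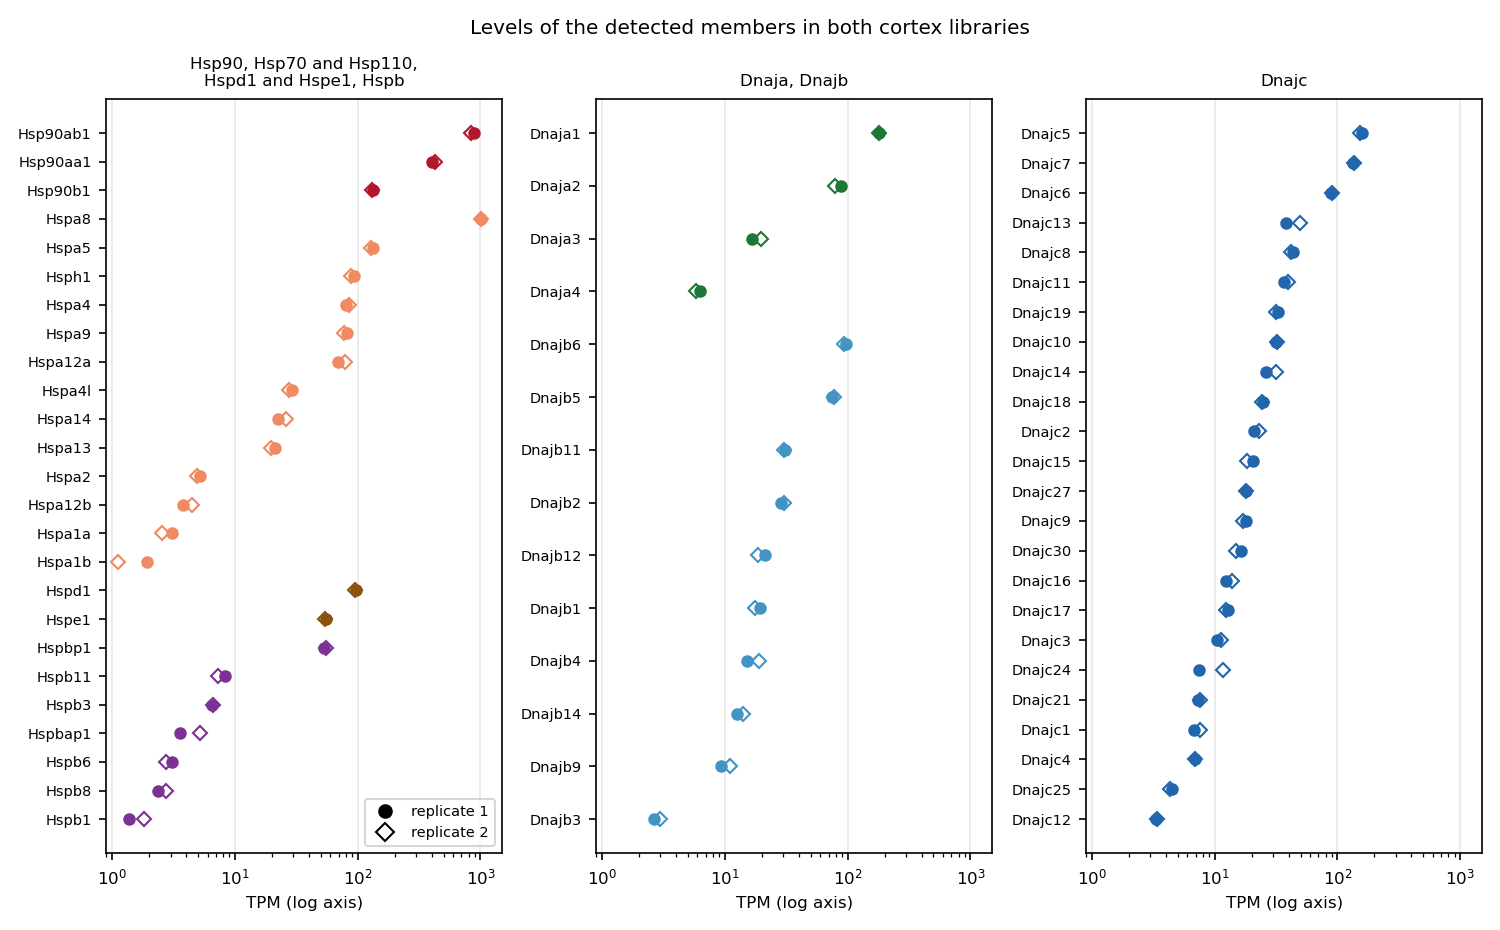
TPM on a log axis of the 63 detected members, one row per gene grouped by family; filled circles are replicate 1 and open diamonds replicate 2. Hspa8 and Hsp90ab1 lie farthest right, and for most members the libraries' symbols overlap.

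The Hsp70 and Hsp110 genes were led by Hspa8, the constitutive cytosolic Hsp70 that also uncoats clathrin vesicles. Hspa8 (chr9:40800984-40810087, plus strand) stood at 1005 and 1012 TPM, the 27th highest of all coding genes. Transcripts without a protein_coding biotype held 26.7% and 27.2% of its TPM, against 9.88% and 9.97% for Hsp90ab1. The rank of Hspa8 above Hsp90ab1 is one of whole genes and was not tested over coding transcripts alone. The stress-inducible pair stood at the other end: Hspa1a had 3.06 and 2.57 TPM, and Hspa1b 1.93 and 1.13 TPM. Hspa8 exceeded Hspa1a by 8.05 ± 0.14 on the log2(TPM + 1) scale and Hspa1b by 8.66 ± 0.33 (SD, n = 2). The pseudocount of 1 understates these distances; with 0.1 they were 8.44 and 9.32. The coding sequence of Hspa8 is 71.6% identical to that of Hspa1a, and those of Hspa1a and Hspa1b are 99.4% identical, so reads of the last pair can be split between them only in part. Hspa2, a close relative best known from sperm development, had 5.26 and 4.95 TPM. The testis gene Hspa1l was the lowest of the family, at 0.11 and 0.02 TPM.

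The organelle Hsp70s were well below Hspa8. Hspa5, the ER Hsp70 also called BiP, had 133.5 and 129.1 TPM, and Hspa8 exceeded it by 2.93 ± 0.04 on the log2 scale. Hspa9, the mitochondrial Hsp70, had 81.3 and 76.9 TPM. Hspa5 lay above Hspa9 in both libraries, by 0.72 ± 0.02, short of the difference of 1 in both libraries that was used to call genes apart. Hspa13, a microsomal Hsp70 with no substrate-binding domain, had 21.1 and 19.8 TPM.

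Among the Hsp110 exchange factors, Hsph1 had 93.4 and 88.2 TPM and Hspa4 had 80.4 and 84.3 TPM. These did not differ by the rule for pairs (Hspa4 over Hsph1, -0.14 ± 0.11). Hspa4l was lower, with 29.4 and 27.7 TPM (Hspa4 over Hspa4l, 1.497 ± 0.105). Of the divergent members, Hspa12a had 69.1 and 78.8 TPM and Hspa12b, known from endothelial cells, 3.82 and 4.48 TPM, a log2 difference of 3.86. The 4 endothelial markers summed to 67.88 and 71.98 TPM. Hspa14, a partner of the ribosome-bound J-domain protein Dnajc2, had 22.5 and 26.3 TPM.

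All 3 Hsp90 genes were above 100 TPM. Hsp90ab1, the constitutive cytosolic form, had 886.8 and 835.3 TPM. Hsp90aa1, the more inducible cytosolic form, had 403.4 and 428.1 TPM, so it was a high-level transcript in tissue with no heat treatment named. Hsp90ab1 over Hsp90aa1 was 1.13 in replicate 1 and 0.96 in replicate 2, not apart by the rule, and it was 0.34 and 0.45 in the second quantification described below. Hsp90b1, the ER form called Grp94, had 133.9 and 130.6 TPM, below Hsp90ab1 by 2.69 ± 0.04 (Hsp90ab1 over Hsp90b1). Its level was next to that of Hspa5, with which it shares the ER and the promoter letters shown above; Dnajc3, with the same letters, had 10.4 and 11.2 TPM.

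Hspd1 and Hspe1, the mitochondrial chaperonin Hsp60 and its lid Hsp10, had 96.3 and 94.6 TPM and 55.1 and 53.9 TPM. Hspd1 over Hspe1 was 0.80 ± 0.004, which did not reach 1. Both genes thus lay within a 2-fold range per length while sharing 1 stretch of promoter.

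The 10 genes named Hspb were low, with a median of 2.75 TPM. The highest, Hspbp1, with 53.7 and 55.1 TPM, is no small heat shock protein but an exchange factor of Hsp70. Hspb11 and Hspbap1 are likewise named for the family without its crystallin domain: Hspb11 is the ciliary transport protein Ift25, at 8.31 and 7.34 TPM, and Hspbap1 binds Hspb1. The highest of the others was Hspb3, a muscle small heat shock protein, with 6.49 and 6.66 TPM. Hspb8, which works with Bag3 in selective autophagy, had 2.37 and 2.77 TPM, and the stress-inducible Hspb1 had 1.38 and 1.82 TPM, from 22 and 27 counts rounded; Hspb8 over Hspb1 was 0.46 ± 0.06. Of small heat shock genes outside the naming rule, Cryab (alphaB-crystallin) had 17.9 and 19.4 TPM, above every true Hspb member. Cryab overlaps Hspb2 by 1030 bases on the opposite strand, and Hspb2 had 0.82 and 0.50 TPM from 9 and 6 counts. The heart gene Hspb7 had 1 count in replicate 1 and 0 in replicate 2.

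Of the 4 Dnaja genes, all were detected. Dnaja1 and Dnaja2, the general cytosolic partners of Hspa8, had 179.6 and 179.7 TPM and 88.5 and 78.6 TPM; Dnaja1 over Dnaja2 was 1.10 ± 0.12, apart by the rule. Dnaja3, the mitochondrial form, had 16.5 and 19.9 TPM, and Dnaja4 was lowest with 6.24 and 5.85 TPM.

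Of the 13 Dnajb genes, 10 were detected. Dnajb6, which keeps polyglutamine proteins from aggregating, was highest with 96.7 and 94.2 TPM. Dnajb5, a cytosolic relative of Dnajb1, followed with 74.1 and 77.4 TPM. The neuronal form Dnajb2 had 29.0 and 30.4 TPM, below Dnajb6 by 1.65 ± 0.08 (Dnajb6 over Dnajb2). Dnajb1, the J-domain protein that heat shock induces, had 19.5 and 17.5 TPM, so Dnajb1 over Dnaja1 was -3.21 ± 0.10, and -3.95 in the second quantification described below. In the ER, Dnajb11 (ERdj3), a partner of Hspa5, had 31.1 and 30.5 TPM and Dnajb9 (ERdj4), a target of the unfolded protein response, 9.35 and 11.0 TPM, a difference of 1.51 ± 0.17. The lowest detected Dnajb gene was Dnajb3, with 2.65 and 2.95 TPM from 49 and 52 counts. Dnajb7 and Dnajb8, both known from the male germ line, were at the floor. Dnajb7 had 1 count in replicate 1 and none in replicate 2. Dnajb8 had none in either library, which leaves room for as many as 3, for counting error only.

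The Dnajc genes, which share little beyond the J domain, were the most numerous, with 24 of 26 detected. The highest were Dnajc5, the synaptic vesicle chaperone cysteine string protein, with 159.5 and 151.4 TPM, and Dnajc7, a regulator of Hsp70 and Hsp90, with 132.5 and 136.9 TPM. Transcripts without a protein_coding biotype held 42.8% and 42.7% of Dnajc7, 20.1% and 22.9% of Dnajc5, and 1.43% and 0% of Dnajc6. The order of these genes over coding transcripts alone was not tested. Dnajc6, the neuronal auxilin that brings Hspa8 to clathrin coats, had 88.8 and 89.6 TPM. Its broadly used relative Gak had 38.4 and 38.9 TPM, lower by 1.18 ± 0.005 (Dnajc6 over Gak). Dnajc5 over Dnajc6 was 0.79 ± 0.06, not apart.

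The members near 20 to 50 TPM covered many compartments. Dnajc13, an endosomal protein, had 38.0 and 49.9 TPM, and Dnajc8, which is tied to splicing factors, 43.5 and 41.5 TPM. Mitochondrial Dnajc11 had 37.0 and 39.3 TPM and Dnajc19, of the protein import motor, 32.9 and 31.8 TPM. Dnajc15, its close relative in that motor, had 20.6 and 18.3 TPM. Dnajc10, an ER disulfide reductase, had 31.3 and 32.5 TPM. Dnajc14 had 26.3 and 31.5 TPM, Dnajc18 24.9 and 24.5 TPM, and Dnajc2, of the ribosome-associated complex, 20.96 and 22.76 TPM. The range inside the family was wide: the lowest detected member was Dnajc12, which assists aromatic amino acid hydroxylases, with 3.33 and 3.42 TPM. Dnajc22 was lowest of all with 0.18 and 0.15 TPM.

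The threshold of 1 TPM fell among few genes. Hspb1 and Hspa1b were the lowest members above it. Just below were Dnajc28, with 1.06 and 0.89 TPM, and Hspb2.

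By family, Hsp70 and Hsp110 genes held 33.8% of the members' summed TPM in replicate 1 and 34.0% in replicate 2, and the 3 Hsp90 genes 31.0% and 30.4%. Dnajc genes held 17.0% and 17.5%, Dnajb 6.79% and 6.90%, Dnaja 6.338% and 6.198%, Hspd1 with Hspe1 3.30% and 3.24%, and Hspb 1.74% and 1.79%. The order of the families was the same in both libraries of the first table. In the second quantification described below, Dnaja with 8.03% came above Dnajb with 6.77%, and in replicate 1 Hsp90 with 30.98% came above Hsp70 and Hsp110 with 30.78%. As shares of expected counts, Hsp90 with 32.41% also came above Hsp70 and Hsp110 with 31.94% in replicate 1. Without Hspbp1, Hspbap1 and Hspb11 the Hspb share was 0.319%. The 10 members assigned here to the ER made up 8.90 ± 0.08% of the sum and the 8 assigned to mitochondria 7.69 ± 0.09%. Another 31 members, Dnajc14, Dnajc16 and Dnajc18 among them, were counted as other or not assigned, so both sets can be incomplete. The 43 J-domain members summed to 0.893 times the 14 Hsp70 and Hsp110 members in replicate 1 and 0.899 times in replicate 2. This order turned with the measure. By the second quantification and by expected counts, the J-domain sum came above that of Hsp70 and Hsp110 in both libraries. In the second quantification the mean shares were 8.03% for Dnaja, 6.77% for Dnajb and 18.9% for Dnajc, against 31.1% for Hsp70 and Hsp110. Among members assigned to the ER, 7 J-domain genes stood at 0.793 and 0.843 times the 2 Hsp70 genes. J-domain genes left without an assignment are not in this ratio, and neither are genes outside the naming rule. Among the latter, Hyou1, an ER exchange factor of Hsp70, had 45.7 and 44.7 TPM. The J-domain gene Sec63 had 22.3 and 21.3 TPM. Among members assigned to mitochondria, 5 J-domain genes stood at 1.52 and 1.61 times Hspa9. The ratio was larger in the second quantification, where Dnajc11 alone had 100.2 and 99.5 TPM, against 106.6 and 100.7 TPM for Hspa9. Transcripts without a protein_coding biotype held most of the first-table TPM of Dnajc15 and Dnajc19, as given below.

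**Figure D2:**
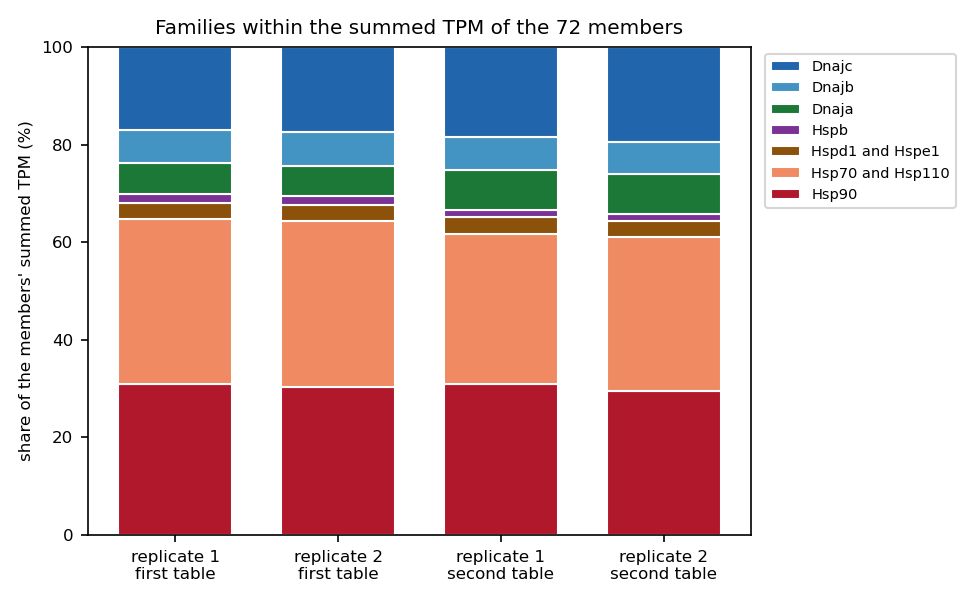
Share of the summed TPM of the 72 members (percent) held by each family, one stacked bar per library for the first and the second quantification. Hsp90 with Hsp70 and Hsp110 fill more than 60% of each bar.

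Between the libraries, the members differed about as much as other genes. Counts were scaled by TMM library sizes, 0.5 was added to each, and a log2 ratio of replicate 1 over replicate 2 of 1 or more in size was the limit, for genes whose counts summed to 20 or more. Of 65 members tested, 1 was past it upward, beside 0.888% of 18474 annotated genes and 0.696% of 14653 coding genes; downward it was none, beside 3.36% and 0.546%. Of the 63 detected members, 54 lay within 0.25 of 0 (85.7%), against 85.3% of detected coding genes. Their median was 0.07, against 0.03. With 1 library on each side, this compares libraries and gives no p-value.

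The member past the limit was Dnajb13, which encodes a radial spoke protein of motile cilia. It had 0.63 TPM in replicate 1 and 0.31 TPM in replicate 2, from 16 and 7 counts, a ratio of 2.32 with an exact 95% Clopper-Pearson interval of 0.90 to 6.67. The interval, like the others here, covers counting error only, and it includes equal levels. Beside it, 5 of 6 motile cilia markers were higher in replicate 1 and their sum was 19.7 against 14.4 TPM, and all 5 choroid plexus markers were higher there (Ttr 206.4 against 1.94 TPM). Their part in the result was not tested.

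Among detected members the ratios ran from -0.53 for Hspbap1 to 0.87 for Hspa1b. Hspa1b had 101 and 56 counts, a ratio of 1.83 (1.31 to 2.59), but the deposited posterior SD of its count was 10.1 in replicate 1, since reads are shared with Hspa1a. Both genes together had 272 and 193 counts, a ratio of 1.43 (1.19 to 1.73), so the sum was higher in replicate 1 beyond counting error, by less than Hspa1b alone. Hspbap1 had 201 and 294 counts, a ratio of 0.69 (0.58 to 0.83), lower in replicate 1. The most abundant members differed little: Hspa8 by a ratio of 1.06 (1.05 to 1.08), Hsp90ab1 by 1.13 (1.11 to 1.15) and Hsp90aa1 by 1.10 (1.08 to 1.12). In first-table TPM, Hspa8 and Hsp90aa1 were lower in replicate 1, at 1005 against 1012 and 403.4 against 428.1 TPM, so their direction turned with the measure. In the second quantification described below, Hspa8 was again lower there, at 1408 against 1422 TPM. Hsp90aa1 was higher there, at 926.6 against 828.4 TPM.

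**Figure D3:**
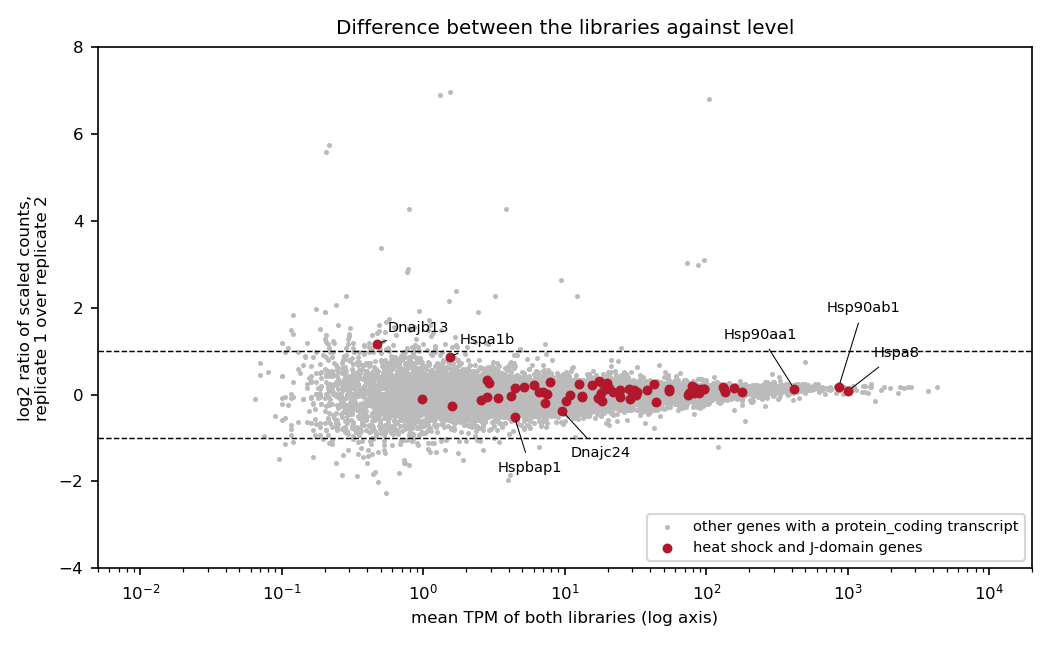
Log2 ratio of scaled counts, replicate 1 over replicate 2, against mean TPM (log axis), for coding genes whose counts summed to 20 or more; red points are the 65 members, and dashed lines mark 1 and -1. Dnajb13 lies above the upper line at a mean of 0.47 TPM, and members above 10 TPM lie near 0.

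The same reads were quantified by the authors in a second way, giving a second table of transcript values. In it Hspa8 had 1408 and 1422 TPM, against 1005 and 1012 TPM in the first table. Most of such differences is one of scale: coding genes took 52.3% and 53.1% of all TPM in the first table and 84.4% and 83.9% in the second, so the median detected coding gene had a log2(TPM + 1) ratio of first over second table of -0.55 in replicate 1 and -0.54 in replicate 2. With TPM as deposited, 8 of 63 members were at -1 or below in both libraries (12.7%), beside 4.98% of detected coding genes, and none was at 1 or above, beside 0.404%. They were Dnaja1, Dnajb2, Dnajc8, Dnajc11, Dnajc14, Dnajc15, Dnajc18 and Hspb11. With TPM rescaled over coding genes in each table, none was past 1 in either direction, beside 0.534% down and 0.71% up. The largest distances that stayed were those of Dnajc11 (-0.70), Dnajc18 (-0.69) and Dnajc8 (-0.61), all lower in the first table, and Hsp90aa1 was lower by 0.40 where Hsp90ab1 was higher by 0.26.

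Several chaperone genes have processed pseudogenes or near copies. Of the leading transcripts of the 63 detected members, 44 shared no window of 100 bases with a transcript of another gene, 19 shared some and 11 shared at least 10% of their windows. Other genes were not searched in this way, so whether members share more sequence than other genes was not tested. Hspa8 shared most, 73.2% of windows. The processed pseudogene Gm15459 on chromosome 5 alone held 68.0% of all Hspa8 windows. That pseudogene was itself given 242.6 and 243.7 TPM in the first table and 319.7 and 314.7 TPM in the second. Sequence in such windows is the same in both genes. The posterior SD of Hspa8 was 132 counts in each library, of 31800 and 30331 counts. Hsp90aa1 shared 53.2% of windows, mostly with Gm12346 (9.99 and 7.88 TPM), and Hspb1 56.3% with Hsp25-ps1 (0.53 and 0 TPM). Hspa1a and Hspa1b shared 48.6% and 49.9%, chiefly with each other. Dnajb6 shared 34.9%, Hspd1 26.9%, Dnaja1 24.99%, Dnajc19 21.6%, Hspe1 20.4% and Hspa14 13.1%.

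**Figure D4:**
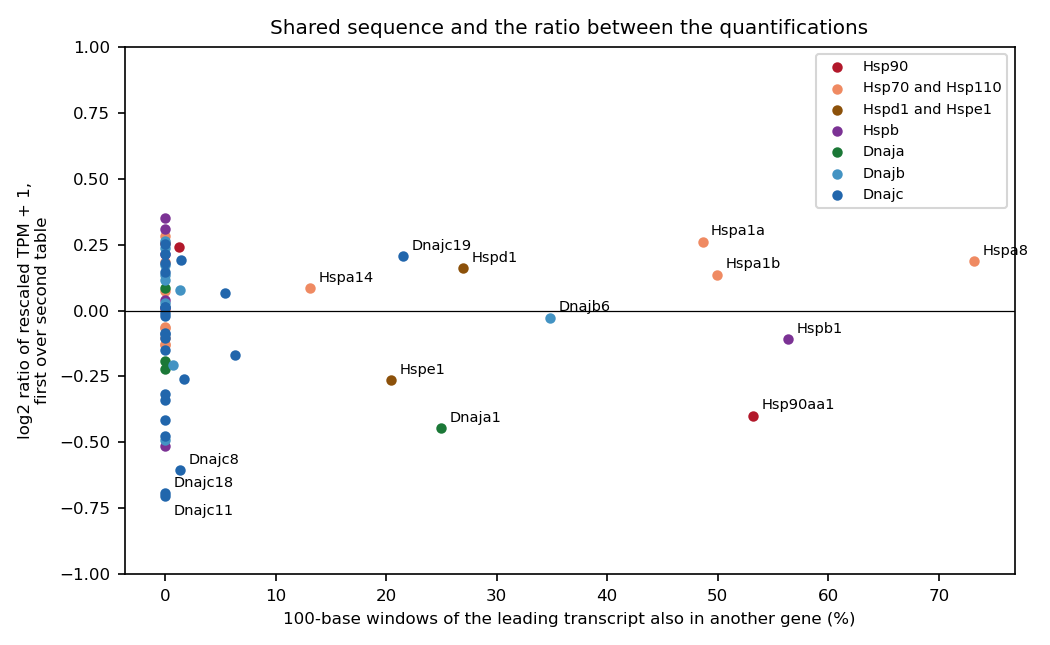
Log2 ratio of rescaled TPM + 1, first over second table (mean of both libraries), against the percentage of 100-base windows of the leading transcript that occur in another gene, for the 63 detected members coloured by family. Hspa8 lies farthest right at 73.2%, and the largest distances from 0, for Dnajc11, Dnajc18 and Dnajc8, are at the left edge.

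Overlaps on the genome add to this for a few members. In all, 39 members overlapped another annotated gene, 19 of them one on the same strand. Overlaps were counted for members only, so these numbers cannot be set against a share over all genes. Dnajc25 overlaps Gm20503 by 22364 bases on the same strand, a gene with 0.34 and 1.15 TPM in the first table and 35.3 and 31.5 TPM in the second. Dnajc25 itself had 4.54 and 4.35 TPM in the first table and 7.83 and 8.37 TPM in the second. Introns of Hspa8 hold the small nucleolar RNA genes Snord14c, Snord14d and Snord14e, which are 86 to 90 bases long and listed at 0. Over the long entries of the first table, effective length was shorter than length by a median of 99 bases, more than these genes have. Whether this bears on their values of 0 was not tested.

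Of 57 detected members with several annotated transcripts, 54 had the same leading transcript in both libraries of the first table and 52 in both of the second. In 41 the leading transcript was also the same in both tables. It took at least 50% of the gene's TPM in both libraries for 43 members by the first table, against 33 by the second. These counts, and the transcript shares below, were taken for members only. Whether other coding genes differ from them was not tested. Among members above 50 TPM, the leading transcript took most for Hspe1-201 (97.6% and 98.2%), Hsp90b1-201 (95.9% and 94.6%), Hspd1-201 (94.9% and 94.8%) and Hspa9-201 (94.3% and 91.4%), all of which led in both tables. Of the lower members, Dnajb9-201, Hspb8-201 and Hspb1-201 took 100% in both libraries of the first table.

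Other members had a leading transcript that depended on the table. Hspa8-202 took 44.3% and 47.8% of Hspa8 in the first table and 0.08% and 0.15% in the second, where Hspa8-201 led with 69.8% and 66.4%. Hspa2-202 took 100% in the first table, and Hspa2-201 led in the second with 75.0% and 81.6%. Dnajb4-202 took 66.8% and 57.2% in the first table and almost nothing in the second, where Dnajb4-204 had 58.5% and 55.3%. Gene sums were closer than these shares: Hspa8 was at 0.19 in the rescaled log2 ratio of first over second table. Between libraries, Hspb11-201 took 97.4% of Hspb11 in replicate 1 and 45.3% in replicate 2 in the first table, at 86 and 71 counts for the gene.

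Transcripts without a protein_coding biotype led 3 members of the first table. Dnajc19-205, annotated as a retained intron and 419 bases long, took 61.1% and 60.2% of Dnajc19 there and 0% in the second table. Dnajc15-203, a processed transcript, took 56.9% and 51.7% in the first table and 51.9% and 46.6% in the second. All transcripts of Dnajc15 without a protein_coding biotype took 86.3% and 84.2% in the first table and 91.6% and 90.6% in the second. The last of the 3 was Hspb6-202, with 44.3% and 36.7% in the first table. In the second table, Dnaja2 was led by the retained intron Dnaja2-202, with 58.5% and 59.0%, against 44.8% and 39.5% in the first. Over the 57 members the median share of such transcripts was 10.2% by the first table, against 14.2% by the second.

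**Figure D5:**
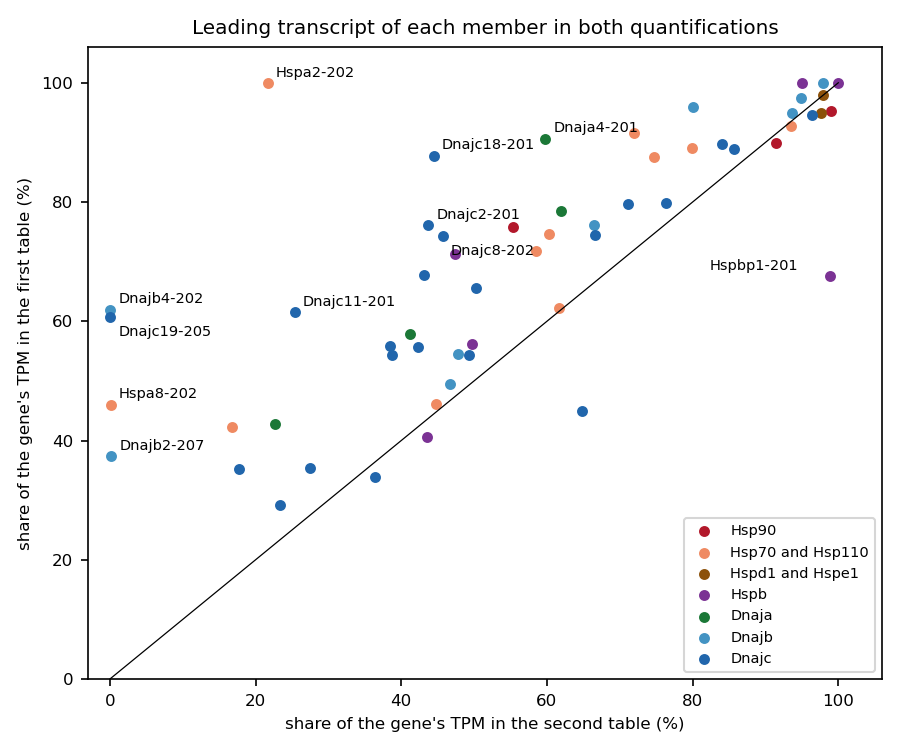
Share of the gene's TPM (percent, mean of both libraries) taken by the first table's leading transcript, in the first table (vertical) against the second (horizontal), for 57 detected members with several transcripts coloured by family; the line marks equal shares. Hspa8-202, Dnajb4-202, Dnajb2-207 and Dnajc19-205 lie at the left edge, with close to 0% in the second table.

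Of 82 genes on 8 lists of the wider chaperone network, 74 were detected (90.2%), beside 59.8% of coding genes. Of the heat shock factors, Hsf1, the main activator of heat shock genes, had 25.1 and 35.1 TPM, and Hsf2 had 20.3 and 23.5 TPM. Hsf3, Hsf4 and Hsf5 were below 1 TPM, while Hsbp1, which binds Hsf1, was the highest on that list with 252.2 and 251.9 TPM. All 12 Hsp70 exchange factors and regulators were detected, from Bag3 at 2.26 and 2.17 TPM to Bag6 at 197.0 and 196.3 TPM. All 16 Hsp90 co-chaperones were detected, from Unc45b, the muscle myosin chaperone, at 1.94 and 2.09 TPM to Fkbp8 at 163.9 and 170.8 TPM.

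The cytosolic CCT chaperonin and prefoldin, which fold actin and tubulin, had the highest list median, 123.2 TPM, with 14 of 15 detected. The exception was Cct6b, a testis subunit, at 0.15 and 0.16 TPM, and the highest was Pfdn5 at 205.5 and 193.8 TPM. All 17 ER folding and unfolded protein response genes were detected, from the sensor kinase Ern1 at 5.06 and 5.31 TPM to Calr (calreticulin) at 274.0 and 262.0 TPM. All 9 mitochondrial chaperones and proteases were detected, from Hscb at 4.89 and 3.14 TPM to Pam16 at 37.6 and 38.1 TPM. Of 6 J-domain genes outside the naming rule, 4 were detected, Gak the highest, and Dnajc5g was listed at 0. Of 3 other small heat shock protein genes 1 was detected, Cryab; the lowest, the sperm gene Odf1, had 0.05 and 0 TPM.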

How the data were processed

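Total RNA from left cerebral cortex was sequenced in 2 libraries. Per the labels, a column kit for animal tissue and ERCC spike-ins for ribosomal RNA reduced, stranded libraries were used. The authors deposited, per the file headers, expected counts and TPM values by gene and transcript (the first table, with RSEM's column names) and estimated counts and TPM values by transcript (the second table, with kallisto's column names), summed per gene here. Per the deposited file descriptions the assembly was mm10 with GENCODE M21; the sources used here name no aligner and no quantifier version. Both tables' TPM are per effective length, spike-ins included. Over the long entries of the first, effective length is shorter than length by a median of 99 bases. CAST/EiJ variants were not modelled here.

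Spike-ins, phiX and numbered entries (0.431% and 0.468% of counts) stayed out. TMM factors (0.984 and 1.02) came from edgeR 4.0.16 and alternative size factors from DESeq2 1.42.0 in R 4.3.3, on counts rounded to whole numbers; other steps used Python 3.11.15, pandas 2.3.3 and scipy 1.17.1. With 1 group there was no test. Pairs were called apart where the log2 ratio was 1 or more, or -1 or less, in each library. The ratio interval was tested on simulated Poisson counts with known ratios. These hold only the counting error that the interval assumes, so the test checks the computation and not how the interval suits these data. The members and lists were chosen with earlier results of these data known. Named are members at a mean of at least 20 TPM, the extremes of each family and list, pairs, called members and those nearest 1 TPM; a few others were named after their values were seen. Alternatives were the second table, other scalings, thresholds and pseudocounts, no low-count filter, and each library alone. Shared windows were counted in the GENCODE transcripts.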

Additional observations from a re-analysis of the deposited data

How the results depend on the processing

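The number of detected members was 65 at a threshold of 0.5 TPM, 61 at 2 TPM, 64 in the second table, and 63 to 64 with 1 library left out. Pairs apart numbered 12 with either pseudocount and in the second table, and 12 to 13 with 1 library left out; no pair's mean changed direction, although Hspa4 over Hsph1 in replicate 2 was 0.03 in the second table, against -0.06 in the first. The count of members past 1 between libraries was 5 without the filter on low counts and 0 as a ratio of TPM + 1, against 1. The count of members past 1 between the tables was 0 with rescaled TPM, 0 when measured from the median of coding genes (added after seeing the data), and 9 to 10 with 1 library left out, against 8. Leading transcripts at 50% or more numbered 33 in the second table and 46 to 47 in single libraries, against 43.

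Family shares moved by more than the small spread between libraries, except that of Hspd1 with Hspe1 in the second table (3.31%, against 3.27%). In the second table they were 31.1% for Hsp70 and Hsp110, 30.2% for Hsp90, 18.9% for Dnajc, 8.03% for Dnaja, 6.77% for Dnajb and 1.59% for Hspb, so Dnaja came above Dnajb; Hsp90 was above Hsp70 and Hsp110 in replicate 1 (30.98% and 30.78%) and below it in replicate 2 (29.50% and 31.48%). As shares of expected counts, which grow with length, they were 32.0% for Hsp70 and Hsp110, 31.8% for Hsp90, 20.5% for Dnajc, 6.74% for Dnajb, 5.50% for Dnaja, 2.43% for Hspd1 with Hspe1 and 0.951% for Hspb, with Hsp90 again first in replicate 1 (32.41%, against 31.94% for Hsp70 and Hsp110). Without Hspbp1, Hspbap1 and Hspb11, added after seeing the data, Hspb held 0.319%. No paired analysis was possible because the series holds 1 group. At 16 and 7 counts, the interval of Dnajb13 includes equal levels, so its difference was not detectable at this depth.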
